A study of Mus musculus with 8 samples.

Results

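Untreated mouse embryonic fibroblasts (MEFs) that carried the N154S mutant of human STING were compared with untreated MEFs that carried wild-type human STING (hSTING). The comparison rests on 2 of the 8 arrays of the series, chosen by their labels: 1 control array of N154S cells and 1 control array of hSTING cells. All cells, these included, lacked the mouse STING gene (STING-/-) and were grown in DMEM with foetal bovine serum; the labels call them primary MEFs. The remaining arrays were from cells with the empty retroviral vector pBabe or the variant R284S, untreated, and from each of the 4 lines after double-stranded DNA (dsDNA) delivered with Lipofectamine 2000 for 9 h. Each line is a single cell population, so a difference between lines cannot be told apart from any other difference between those populations. The labels do not say whether control cells received the transfection reagent. The human transgenes have no probe set of their own among the named genes, and the mouse Sting1 probe set lay below its array's median in both control lines, at 3.84 with hSTING and 3.89 with N154S, so the array does not check the labels of the constructs.

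STING is an adaptor in the membrane of the endoplasmic reticulum. When cytosolic DNA is present, the enzyme cGAS makes the cyclic dinucleotide cGAMP, which binds STING, and STING then travels to the Golgi apparatus, where the kinase TBK1 activates the transcription factor IRF3 and type I interferon genes are transcribed. Secreted interferon acts through its receptor on the interferon-stimulated response element (ISRE) of interferon-stimulated genes, and STING also feeds the NF-kB pathway. N154S is a substitution found in SAVI, an autoinflammatory disease in which STING signals without DNA. Since wild-type STING also gives a low basal signal in resting cells, the question here is what the mutant line showed beyond the wild-type line, with no ligand added to either.

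Values are log2 signals, so a difference of 1 is 2-fold. With 1 array a side there is no replicate check, no error and no test, and "higher" and "lower" describe these 2 arrays. A gene was counted when its difference was 2-fold or more and its brighter signal reached the median of the named genes on that array, which was 4.45 for hSTING and 4.47 for N154S. Where the dimmer signal was below that median, the fold is given as "at least", against the median. Of 22180 genes, 118 were counted as higher in N154S, or 0.532% of the genes, and 49 as lower, or 0.221%, which makes 167 counted in either direction, or 0.753%. Over all genes the differences had a median of 0.02 and an SD of 0.31, and the central 95% ran from -0.57 to 0.61. In bulk RNA such as this, fewer cells of a type and less RNA per cell cannot be told apart.

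The 11 fibroblast markers checked, among them Col1a1, Pdgfrb and Thy1, lay between 7.17 and 12.80 on the 2 arrays, all above the median. None was counted, but 10 of the 11 had a difference below 0, with a median of -0.43. Of 10 macrophage markers 8 were below the median on both arrays, with the leukocyte antigen gene Ptprc at 2.52 and 2.50, and their summed level was 37.14 with hSTING and 37.66 with N154S. None of the markers of T or NK cells, B cells, endothelium, epithelium or skeletal muscle was counted. The 8 reference genes measured, Gapdh, Actb and Tbp among them, differed by -0.14 to 0.21.

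**Figure D1:**
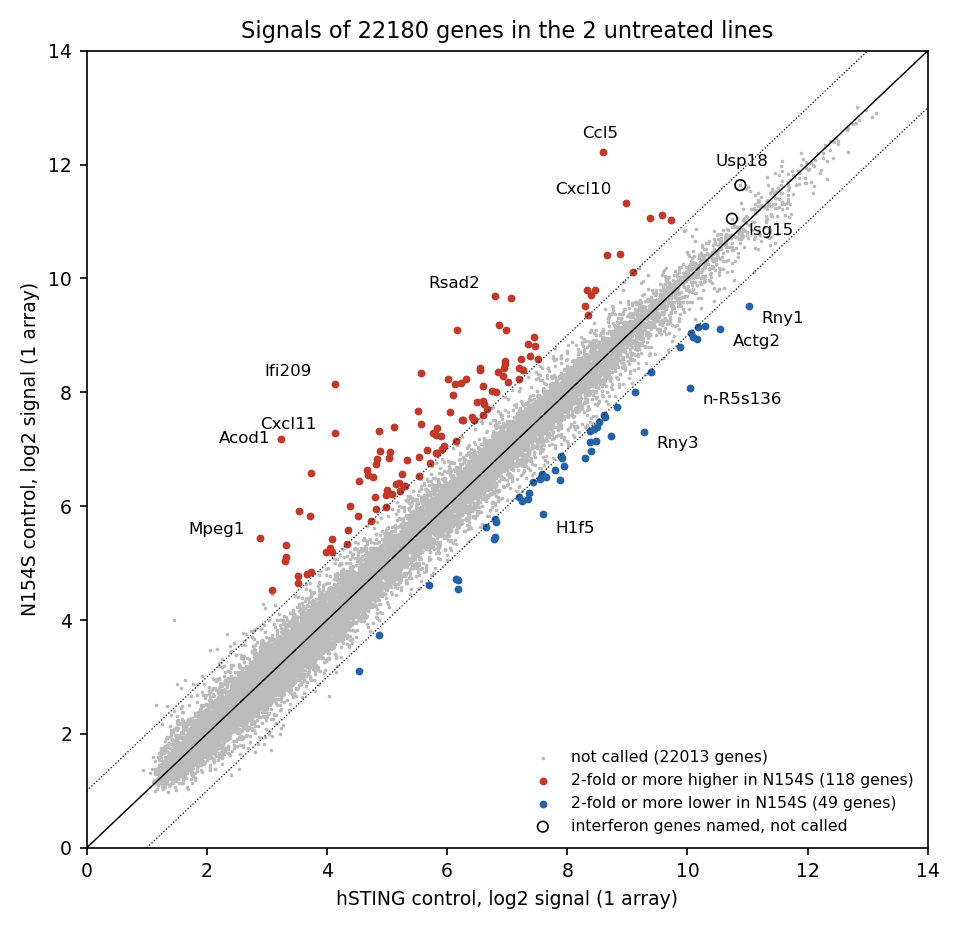
Each point is 1 of 22180 genes, with its log2 signal on the hSTING control array on the x axis and on the N154S control array on the y axis. The solid line marks equal signals and the dotted lines 2-fold differences. The 118 red genes lie above the upper line and the 49 blue genes below the lower line, with no error bars because each axis is 1 array. The ringed genes Usp18 and Isg15 are bright on both arrays and lie inside the lines.

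The genes with the largest positive differences include many interferon-stimulated genes, so the promoters were read for the ISRE core (GAAA, any 2 bases, GAAA) on either strand. Of the 20 highest genes, Ccl5, Cxcl11, H2-Q5, Iigp1 and Gm4951 had no promoter window in the RefSeq table and could not be read. Among antiviral effectors with a core before their start and an N154S signal at or above the median, Phf11a had the difference nearest to 0. The stretches printed next are those of the 5 highest genes with a core before their start site and that of Phf11a, with up to 45 bases on each side. They are RefSeq promoter sequences of GRCm38.p6, written 5′ to 3′ on the strand of the gene, with every core in capitals. Those of Rsad2 (chr12:26456518-26456617, minus strand, core 120 to 111 bases before the start), Gm12250 (chr11:58183752-58183842, plus strand, the second core 46 to 37 bases before), Cxcl10 (chr5:92349048-92349139, minus strand, 213 to 204 bases before), Phf11b (chr14:59341331-59341425, minus strand, 50 to 41 bases before), Ifit3b (chr19:34607758-34607857, plus strand) and Phf11a (chr14:59297523-59297596, minus strand, 29 to 20 bases before) read as follows.
Rsad2: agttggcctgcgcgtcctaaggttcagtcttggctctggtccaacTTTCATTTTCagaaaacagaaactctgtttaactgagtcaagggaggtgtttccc
Gm12250: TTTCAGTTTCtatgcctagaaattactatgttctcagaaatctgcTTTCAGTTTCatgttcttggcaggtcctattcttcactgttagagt
Cxcl10: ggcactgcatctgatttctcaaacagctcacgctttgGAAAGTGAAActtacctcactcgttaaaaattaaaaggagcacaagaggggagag
Phf11b: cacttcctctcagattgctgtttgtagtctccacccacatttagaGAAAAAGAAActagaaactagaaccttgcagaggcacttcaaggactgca
Ifit3b: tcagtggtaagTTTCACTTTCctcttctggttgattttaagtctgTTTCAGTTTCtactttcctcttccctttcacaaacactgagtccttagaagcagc
Phf11a: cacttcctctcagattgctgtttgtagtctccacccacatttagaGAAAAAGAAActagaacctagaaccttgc

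Phf11b and Phf11a encode closely related PHD finger proteins, and over their first 74 printed bases the stretches differ at 1 base. Phf11b stood at 5.22 with the vector, 5.12 with hSTING, 7.39 with N154S and 4.97 with R284S in control cells, a difference of 2.27 between N154S and hSTING. Phf11a stood at 4.81, 5.02, 5.17 and 4.45 in the same order, a difference of 0.15. Probes can cross-react between copies this alike, so the split between these 2 genes is uncertain.

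Of the 83 higher genes with a promoter window in the RefSeq table, 24 (28.9%) held the ISRE core in a window, the 300 bases from 250 before to 50 after a start. A gene can have several windows, and shares are of genes that hold the motif in any. The core was in 657 of 16990 genes with a window (3.87%) and in 0 of 29 lower genes with one. Restricted to bases before the start, the shares were 24.1% of higher genes and 3.4% of all. Within the list of antiviral effectors, 6 of 12 members counted as higher and with a window held the core, as did 15 of 34 members not 2-fold different (44.1%). A form with any 3 bases between the GAAA parts was held by 6 of those 12 and by 2 of those 34 (5.88%). Its share over all genes with a window was 3.03%. A kB-like motif (GGGA, any 2 bases, TTCC) was in 6 of the 83 higher genes (7.23%), Ifi209, Neurl3 and Cxcl10 among them, and in 1.64% of all genes with a window. The GAS motif TTCNNNGAA was in 7.23% of the higher genes and 9.15% of all. Motifs of these letters may overlap one another, and a match is a description of letters only.

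The antiviral effectors, proteins that block steps of viral replication, were the largest interferon list. Of its 56 measured members 15 were counted as higher and 1 as lower, 53 had a difference above 0, and the median was 0.69 against 0.02 for all genes. Rsad2, which encodes the antiviral enzyme viperin, stood at 5.28 with the vector, 6.80 with hSTING, 9.69 with N154S and 10.30 with R284S, so N154S was 7.41-fold above hSTING. Cmpk2, the nucleotide kinase gene next to Rsad2, stood at 3.57, 7.07, 9.66 and 10.38 and was 6.02-fold higher. In both genes the 4 control arrays kept the same order, with the vector lowest and R284S highest.

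Members of the IFIT family, which bind foreign RNA, differed in size. Ifit3b stood at 2.18 with the vector, 3.71 with hSTING and 5.83 with N154S, at least 2.6-fold higher in N154S. Ifit1 stood at 3.94, 9.58 and 11.11 and was 2.89-fold higher, and Ifit2 was 2.17-fold higher. Ifit3 and Ifit3b are near-identical copies and uncertain, and Ifit3 differed by 0.82, below 2-fold. Other effectors counted as higher were Ddx60 (1.93), Phf11d (1.87), Parp14 (1.59), Mx2 (1.54), Herc6 (1.51), Sp100 (1.47) and Trim21 (1.25), all as log2 differences, and Sp110, 2.46-fold higher. The single lower member was Ifi27, at 7.84 with the vector, 7.37 with hSTING, 6.23 with N154S and 7.97 with R284S.

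The OAS and OASL family senses double-stranded RNA or, in its catalytically inactive members, modulates RNA sensing. It had the highest median of the lists, 1.28, with 5 of 7 members counted as higher. Oasl1 stood at 3.83 with the vector, 6.16 with hSTING, 9.10 with N154S and 10.29 with R284S, a 7.67-fold difference between N154S and hSTING. Oas1g was 3.81-fold higher, and Oas1b, Oas3 and Oas2 differed by 1.34, 1.28 and 1.24. Oasl2 stood at 4.89 with the vector, 9.95 with hSTING and 10.84 with N154S, a difference of 0.89.

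Interferon-induced GTPases, which attack the vacuoles of intracellular pathogens, had 7 of 13 members higher and a median of 1.25. Iigp1 stood at 3.14 with the vector, 6.98 with hSTING, 9.09 with N154S and 7.35 with R284S, so R284S lay close to hSTING. Gbp9 was 4.06-fold higher in N154S than in hSTING, and Gbp3, Gbp10, Igtp, Gbp7 and Irgm2 differed by 1.53, 1.52, 1.51, 1.35 and 1.25. Gm12250, known as Irgb10, is of the same kind but was not on the list. It stood at 3.33, 3.54, 5.91 and 3.94, at least 2.75-fold higher in N154S, and Gm4951, a related gene, was 4.23-fold higher.

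**Figure D2:**
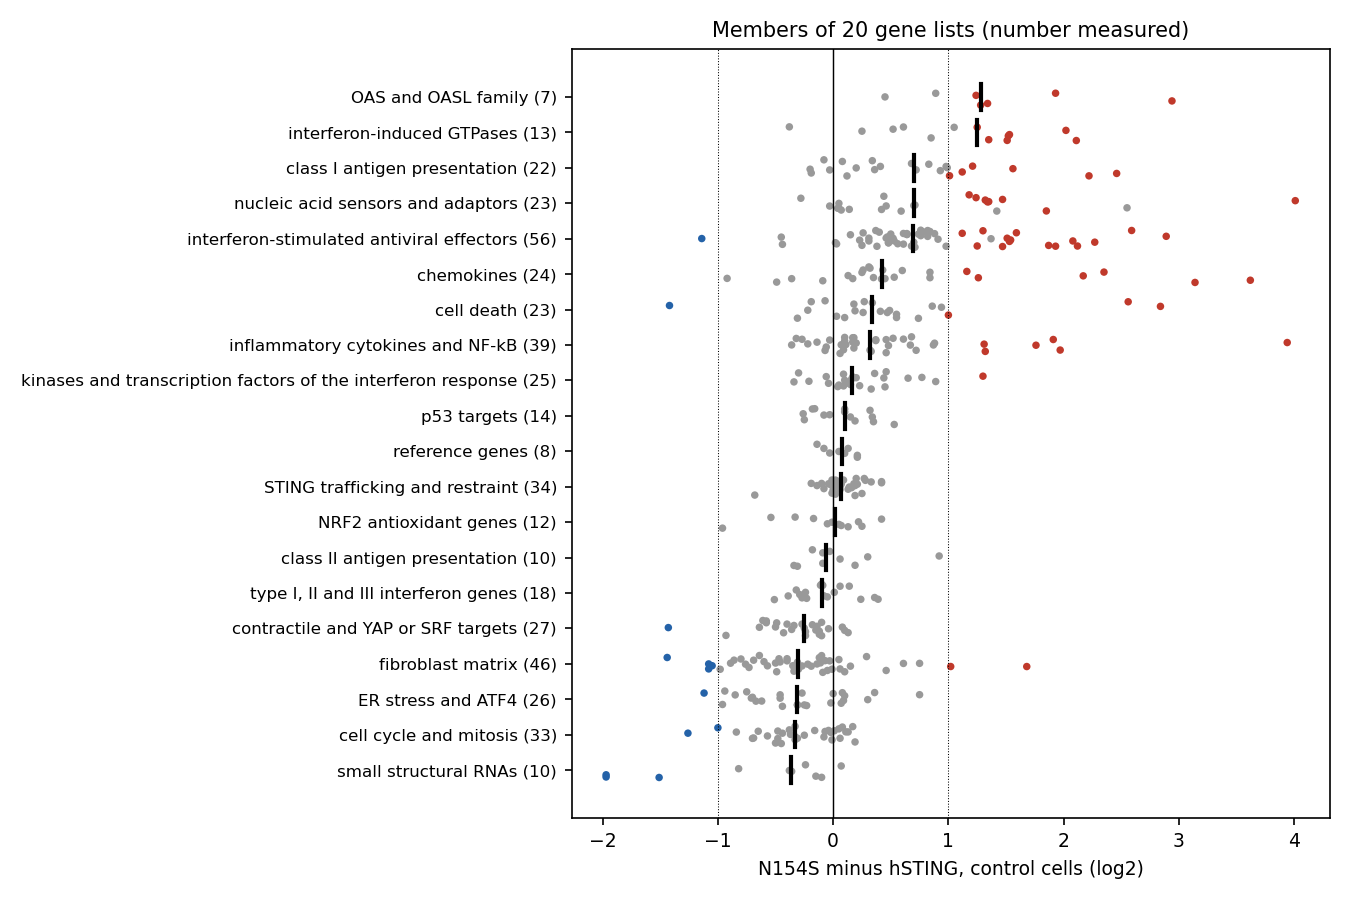
Each point is a gene of the list named on the y axis, with the number of measured members in brackets, and the x axis gives N154S minus hSTING in control cells as a log2 difference of 2 arrays. Red and blue points are counted as higher and lower, grey points are not, and grey points beyond the dotted 2-fold lines were too dim to count. Black bars are list medians, from 1.28 for the OAS and OASL family down to -0.37 for small structural RNAs.

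Among nucleic acid sensors and adaptors 8 of 23 were higher, and 5 of these belong to the Ifi200 family, whose members bind DNA and whose copies are alike enough to be uncertain. Ifi209 had the largest difference of all genes: its signal was 2.81 with the vector, 4.13 with hSTING, 8.14 with N154S and 4.19 with R284S. N154S was at least 12.9-fold above hSTING, and it stood apart from all 3 other control lines. The other members counted were Mndal (1.85), Ifi204 (1.35), Ifi205 (1.32) and Ifi207 (1.24). Ifih1, which encodes the RNA sensor MDA5, was 2.77-fold higher, Zbp1, a sensor of Z-form nucleic acid, 2.53-fold and Tlr3 2.27-fold. Cgas differed by 0.42 and Mavs by -0.03.

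The signalling genes upstream of these effectors stood nearer to hSTING. Of 25 kinases and transcription factors of the interferon response 1 was counted, Irf7, the factor that amplifies interferon production, at 5.27 with the vector, 9.72 with hSTING, 11.02 with N154S and 9.66 with R284S. Tbk1 differed by 0.45, Ikbke by 0.65, Irf1 by 0.36 and Irf3 by -0.34, and the list median was 0.16. Of the 34 measured genes that move STING between the endoplasmic reticulum and the Golgi apparatus or restrain it, such as Copa and Surf4, 0 were counted and the median was 0.07.

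No interferon gene was counted, of 18 measured. Ifnb1, which encodes interferon beta, stood at 3.18 with the vector, 3.21 with hSTING, 2.82 with N154S and 4.06 with R284S in control cells, all below the median of their arrays. After dsDNA it stood at 8.80 with hSTING and 4.95 with N154S, which shows that the probe set can give a bright signal. Both control signals were below the median for 13 of the 18, so low interferon transcripts were not measurable as differences here. The alpha genes are near-identical copies and uncertain.

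The 76 measured antiviral effectors, OAS members and GTPases were also set out by their hSTING level, from the same array that enters the difference, so this is a description only. Of 14 with an hSTING signal below the median, 1 was counted as higher, and the median difference was 0.56. Another 51 had an hSTING signal from the median up to 9, and of these 25 were counted as higher, with a median difference of 0.91. Of the 11 with an hSTING signal of 9 or above, 1 was counted, Ifit1, and the median difference was 0.50. Examples were taken after their values were seen. Isg15, a ubiquitin-like modifier, was among the 11 at 6.17 with the vector, 10.74 with hSTING and 11.05 with N154S. Usp18, the protease that removes Isg15 and restrains interferon signalling, stood at 4.84, 10.88 and 11.64, and Ifitm3 at 11.49, 12.18 and 12.21. In these genes the vector line was far below both STING lines for Isg15 and Usp18 and less so for Ifitm3. A log2 array signal is compressed near the top of its range, and the part of that in these small differences was not tested.

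Chemokines had 6 of 24 members counted as higher. Ccl5, which attracts T cells and monocytes, stood at 4.74 with the vector, 8.60 with hSTING, 12.22 with N154S and 13.01 with R284S, a 12.3-fold difference between N154S and hSTING. Cxcl9, Cxcl10 and Cxcl11, neighbouring genes of the family of ligands of the receptor CXCR3, were all higher. RefSeq labels Cxcl11 a transcribed pseudogene here, as it does Mx2, Oas1b, H2-Q5 and H2-T10 of the other lists, so their signals stand for transcripts only. Cxcl10 stood at 5.13, 8.98, 11.33 and 12.21 and was 5.1-fold higher. Cxcl11 stood at 4.42, 4.14, 7.28 and 8.99, so the vector and hSTING lines were both low and N154S was at least 7.11-fold higher. Cxcl9 stood at 3.15, 5.51, 7.68 and 5.69, a 4.5-fold difference, with R284S close to hSTING. Ccl8 was 2.23-fold and Cxcl3 at least 1.26-fold higher. Ccl2 and Ccl7, attractants of monocytes, were bright in all 4 lines and differed by 0.32 and 0.42.

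Inflammatory and NF-kB genes had 6 of 39 members counted. Acod1, whose enzyme makes the immunomodulatory metabolite itaconate, stood at 3.63 with the vector, 3.24 with hSTING, 7.18 with N154S and 9.65 with R284S, at least 6.63-fold higher in N154S. Nos2, the inducible nitric oxide synthase, was 3.92-fold higher, the alarmin genes Il33 and Il1a 3.76-fold and 3.39-fold, the NF-kB inhibitor gene Tnfaip3 2.5-fold and Cd274, which encodes PD-L1, 2.48-fold. In Acod1, Nos2, Il33, Il1a and Tnfaip3 the vector signal was within 0.5 of the hSTING signal, and in Cd274 it was lower, at 3.75 against 5.25. Il6 was at 7.48 with hSTING and 8.36 with N154S, below 2-fold.

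Class I antigen presentation, the display of cell-internal peptides to CD8 T cells, had 6 of 22 members higher and a median of 0.70. H2-K1, a classical class I heavy chain, stood at 7.26 with the vector, 8.87 with hSTING, 10.43 with N154S and 9.39 with R284S and was 2.95-fold higher in N154S. H2-Q5 (5.5-fold), H2-Q4 (4.66-fold), H2-T10 (2.17-fold), the immunoproteasome subunit gene Psmb9 (2.31-fold) and the peptide trimming enzyme gene Erap1 (2.01-fold) were also counted. H2-Q5 and H2-Q4 each had a second probe set, and those gave differences of 0.95 and 0.69. B2m, the shared light chain, was near the top of the range at 12.82 and 13.02. Class II genes had 0 of 10 counted, a median of -0.06, and H2-Ab1 at 5.91 and 6.83.

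Further genes of the 20 highest do other work. Serpinb9e, a serpin family gene, stood at 2.95 with the vector, 3.74 with hSTING, 6.58 with N154S and 7.63 with R284S, at least 4.38-fold higher in N154S. Mpeg1, which encodes the pore former perforin-2, stood at 2.56, 2.88, 5.44 and 3.33, at least 1.99-fold higher. Mlkl, the executor of necroptosis, was 2.0-fold higher, and the remaining counted gene of the 23 measured cell death genes, the protease inhibitor gene Serpina3n, was lower. Neurl3, a ubiquitin ligase gene, stood at 5.50, 5.56, 8.34 and 10.13, 6.87-fold higher, with the vector and hSTING lines level. Sprr1a, which encodes a cornified envelope protein, stood at 6.48, 6.87, 9.18 and 11.11 and was 4.96-fold higher. No member of the p53 targets (14 measured) or the NRF2 antioxidant genes (12) was counted.

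**Figure D3:**
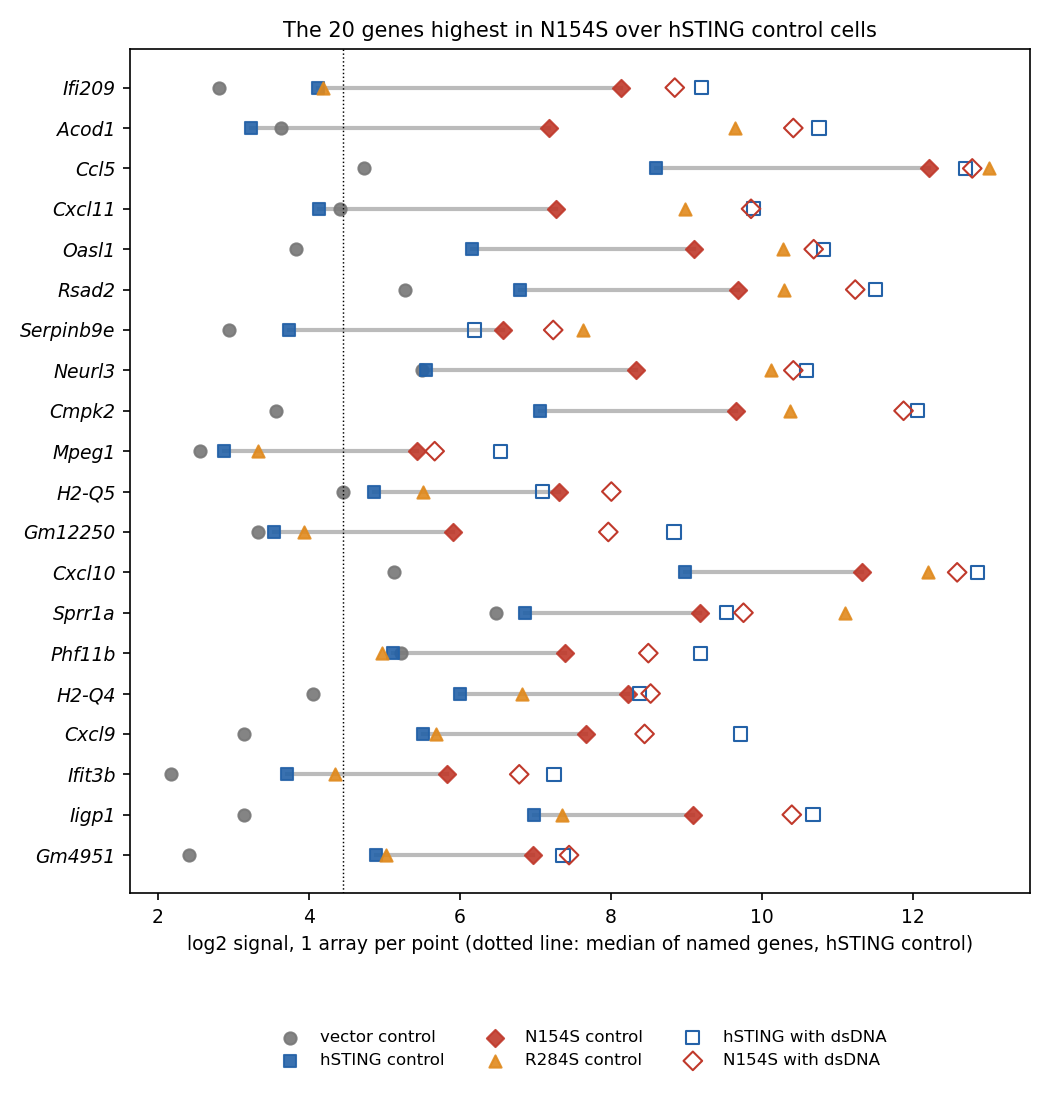
The 20 genes with the largest positive difference are on the y axis and log2 signals on the x axis, with 1 array per point and a grey bar joining the 2 arrays compared. Filled points are control cells and open points are hSTING and N154S cells after dsDNA, and the dotted line is the median of named genes on the hSTING control array. For Ifi209, Phf11b and Cxcl9 the R284S control point lies by hSTING, and for Ccl5, Acod1 and Oasl1 it lies beyond N154S.

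Some higher genes lie beside each other. In the order of named genes along the RefSeq chromosomes, 45 of the 118 were within 3 steps of another, in 17 runs. The longest held 5 genes each: Ifi209, Ifi207, Ifi204, Mndal and Ifi205 in 1, and Gm4951, Gm4841, F830016B08Rik, Iigp1 and BC023105 in the other. Oas2, Oas3, Oas1b and Oas1g formed a run of 4. These are families of related copies, so neighbours may share signal through cross-reacting probes, and that share was not tested. Of the 49 lower genes 8 lay in 4 runs, each of 2 genes. No such count was made for genes in general, so both counts are given only as a description.

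The lower genes were of other kinds. Small structural RNAs had 3 of 10 members lower and 0 higher. The 5S ribosomal RNA gene n-R5s136 stood at 9.58 with the vector, 10.05 with hSTING, 8.08 with N154S and 8.89 with R284S, 3.92-fold lower in N154S than in hSTING. Rny3 and Rny1, Y RNAs that bind the Ro60 protein, stood at 9.28 and 11.02 with hSTING and at 7.31 and 9.51 with N154S, 3.92-fold and 2.85-fold lower. Rny3 was 9.35 and Rny1 11.14 with the vector, close to hSTING in both.

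Further groups were formed by gene symbol after the values were seen. The 478 microRNA genes had a median difference of 0.00, with 1 higher and 1 lower. Of 47 measured Snord genes, C/D box small nucleolar RNAs that guide methylation of ribosomal RNA, 11 were counted as lower and 0 as higher, with a median difference of -0.59. The 41 of them with a mean at or above the median had median levels of 8.36 with the vector, 8.50 with hSTING, 7.56 with N154S and 8.01 with R284S in control cells. After dsDNA the 4 lines stood at 7.82, 8.04, 7.84 and 7.71, so the N154S control array was the lowest of the 8 and the vector line was also 0.44 lower with dsDNA than without, as a median over genes. Of 30 genes for histones 5 were lower. H1f5, a linker histone gene, stood at 7.09 with the vector, 7.60 with hSTING, 5.86 with N154S and 5.94 with R284S, 3.34-fold lower, and H2ac20 was 2.68-fold lower. The deposited values hold no measure of RNA quality or of recovery of short RNAs, and the part of either in these differences was not tested.

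Most matrix genes of fibroblasts had a difference below 0, few of them past 2-fold. Of 46 measured, 36 had a difference below 0, 4 were counted as lower and 2 as higher, and the median was -0.30. Col6a3, a chain of microfibrillar collagen VI, stood at 8.54 with the vector, 8.29 with hSTING, 6.85 with N154S and 6.22 with R284S and was 2.71-fold lower. Col6a2, the asporin gene Aspn and Egfl6 were 2.11-fold, 2.11-fold and 2.07-fold lower. Col1a1 differed by -0.60, Col1a2 by -0.46 and Col3a1 by -0.64. The higher members were the collagenase gene Mmp13, at 9.44, 9.38, 11.06 and 11.07 and 3.2-fold higher, and the stromelysin gene Mmp10, 2.03-fold higher.

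Contractile and growth genes lay in the same direction with few members past 2-fold. Of 27 contractile genes and targets of YAP or SRF 24 had a difference below 0, with a median of -0.25, and 1 was counted: Actg2, a smooth muscle actin gene, at 10.81 with the vector, 10.54 with hSTING, 9.11 with N154S and 8.70 with R284S. Of 33 cell cycle genes 25 were below 0 with a median of -0.33, and the mitotic cyclin gene Ccnb2 (-1.26) and the centromeric histone gene Cenpa, at 7.43 and 6.43, were counted. Mki67 differed by -0.33 and Cdk1 by -0.48. In the ER stress and ATF4 list, median -0.31, the amino acid transporter gene Slc7a5 was 2.17-fold lower, and the chaperone gene Hspa5 was at 9.42 on both arrays. Other genes among the 15 lowest were Sprr2k (3.12-fold lower), the neuronal tubulin gene Tubb3 (2.79-fold), Gzmd (2.79-fold), Crip1 (2.68-fold), Serpina3n (2.68-fold), Mir1983 (2.57-fold) and Prss35 (2.53-fold), and Snord92, at 4.53 with hSTING and 3.10 with N154S, at least 1.04-fold lower.

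**Figure D4:**
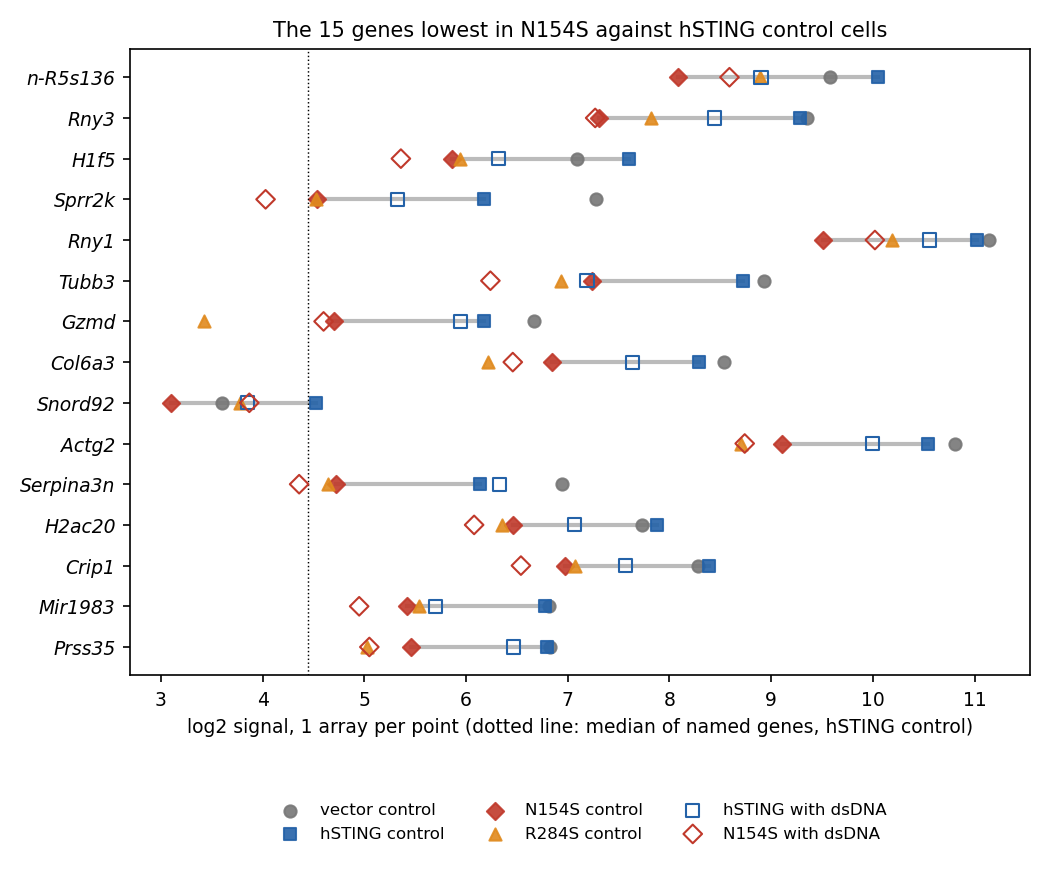
The 15 genes with the largest negative difference are on the y axis and log2 signals on the x axis, with 1 array per point, a grey bar between the 2 arrays compared and the dotted line at the median of named genes on the hSTING control array. Filled points are control cells and open points are hSTING and N154S cells after dsDNA. For Rny3, Col6a3, Actg2 and Crip1 the vector control point lies near hSTING, and the open N154S point lies left of the open hSTING point.

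The same lines after dsDNA give a pair of arrays that shares none with the control pair. There 39 genes were 2-fold or more higher in N154S than in hSTING (0.176% of the genes) and 124 were lower (0.559%). Of the genes higher in control cells 11 were also higher after dsDNA, which is 9.32% of the 118 and 28.2% of the 39, while 5 were 2-fold or more lower there. Their median difference was 1.35 in control cells and 0.02 after dsDNA, and 60 of the 118 (50.8%) were above 0 after dsDNA, against 50.5% of all genes. Of the genes lower in control cells 13 were also lower after dsDNA, 26.5% of the 49 and 10.5% of the 124, and 0 were higher. Their medians were -1.14 and -0.67, and 47 of 49 (95.9%) were below 0 after dsDNA, against 10648 of all 22180 genes.

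The higher genes divided by the lists they belong to. The 8 immune lists (effectors, OAS, GTPases, sensors, kinases and transcription factors, chemokines, inflammatory genes and class I) held 54 of the 118. Of these 54, 0 were 2-fold or more higher after dsDNA, 3 were lower by that much and 42 differed by 0.5 or less, with medians of 1.53 in control cells and -0.14 after dsDNA. Over all genes the differences after dsDNA had a median of 0.01 and an SD of 0.33, and 0.176% were counted as higher. The share of all genes within 0.5 after dsDNA was not counted. The counts of 0 and 42 therefore do not set the 54 apart from genes in general. Ccl5 after dsDNA stood at 12.70 with hSTING and 12.79 with N154S, Ifi209 at 9.20 and 8.85, Acod1 at 10.76 and 10.42, and Rsad2 at 11.51 and 11.24. With DNA the 2 lines were thus nearly level in these 4 genes, both above the N154S control signal.

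Of the 64 higher genes outside those lists, 11 (17.2%) were also 2-fold or more higher after dsDNA, and the median difference there was 0.40. These 64 are not a class without immune genes, since the lists are incomplete. The GTPase gene Gm12250 and the chemokine gene Ppbp are among the 64. Ppbp is also 1 of the 11, so the count of 0 among the 54 listed immune genes depends on how the lists were drawn. Angptl7, an angiopoietin-like secreted protein gene, stood at 5.05 with hSTING and 6.96 with N154S in control cells and at 5.05 and 6.75 after dsDNA. Ivl, which encodes involucrin, stood at 4.83 and 6.83, then at 5.11 and 6.39. Akr1c18, a steroid reductase gene, stood at 6.54 and 8.42, and its difference after dsDNA was 1.39. Serpinb9e, the decoy receptor gene Il13ra2, the Wnt agonist gene Rspo3, the morphogen gene Bmp4, the peptide gene Apln, the noncoding C430002N11Rik, the complement protease gene Masp1 and the platelet chemokine gene Ppbp were the other 8. In all 11 the N154S signal was above the hSTING signal on both pairs, as the selection requires.

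Ppbp, and Gpc3, Egfl6 and Tgfb2 in the following sentence, lie beyond the 10 largest per direction and are named to complete the counts. The genes lower on both pairs were Rny3, Sprr2k, Gzmd, Col6a3, Actg2, Crip1, Serpina3n, Prss35, Galnt16, Aspn, Egfl6, Gpc3 and Tgfb2. Col6a3 stood at 7.64 with hSTING and 6.46 with N154S after dsDNA, Actg2 at 10.00 and 8.74, and Serpina3n at 6.33 and 4.36. The 5S gene n-R5s136, lowest in control cells together with Rny3, was at 8.90 and 8.59 after dsDNA.

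**Figure D5:**
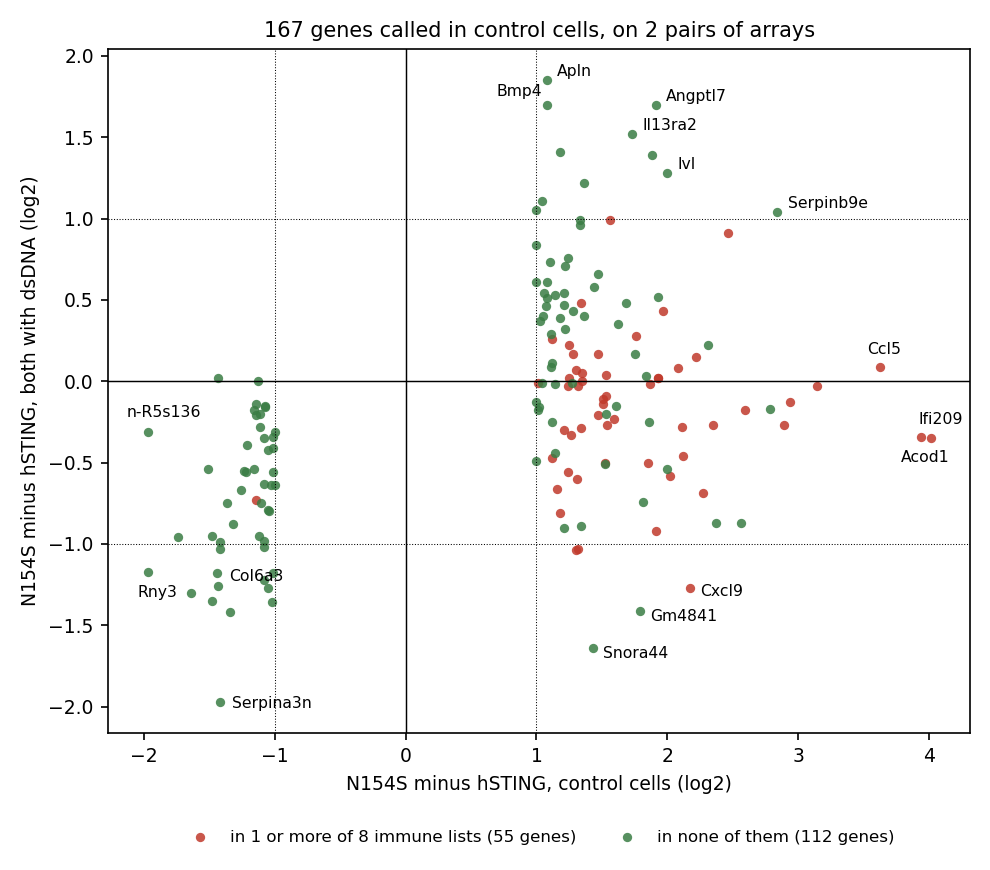
Each point is 1 of the 167 genes counted in control cells, with N154S minus hSTING in control cells on the x axis and the same difference after dsDNA on the y axis, both on the log2 scale and each from 2 arrays. Dotted lines mark 2-fold. Red points, the 55 members of 8 immune lists, lie mostly near 0 on the y axis, and 11 green points lie beyond 2-fold at the upper right and 13 at the lower left.

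Beside the vector line, some counted genes had level vector and hSTING signals and others did not. Vector and hSTING control signals were within 0.5 of each other in 12 of the 54 immune genes and in 45 of the 64 other higher genes, and in 40 of the 48 lower genes outside the lists. The share of all genes within 0.5 was not counted, so these counts do not set the groups apart from other genes. The hSTING control array also enters both differences, so the counts are given only as a description of levels. Acod1, Cxcl11, Phf11b and Neurl3 are among those with level vector and hSTING signals, whereas Cmpk2 (3.57 and 7.07), Cxcl10 (5.13 and 8.98) and Iigp1 (3.14 and 6.98) are not. Against R284S control cells, N154S was the lower or level line in 16 of the 54 immune genes, and R284S was nearer to hSTING than to N154S in 30. These 54 were selected for a high N154S signal over hSTING on the same arrays, which favours R284S lying below N154S. The counts against R284S are therefore a description only.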

How the data were processed

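Per the labels' protocols, labelled cDNA was made from 300 ng of total RNA with GeneChip WT PLUS reagents, and Affymetrix Expression Console 1.3.1.187 is named in the submitters' processing notes. The authors deposited log2 values for 41345 probe sets; the sources used here do not give the summarisation algorithm or array build. Array medians over named genes lay between 4.42 and 4.47, and the number of arrays limits the precision.

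Of the probe sets, 23521 had 1 symbol in the platform annotation, 1814 had several and 16010 were not listed. Only the first entered counts, and for 1082 genes with several, the one with the highest mean over 8 arrays was used. Log2 differences of 2 arrays were computed in Python 3.11.15 with pandas 2.3.3 and counted at 2-fold, without a test. Counting was tested on simulated data with a smaller spread than the real differences and with changes set in bright genes only. That test checked the code and gives no error rate for these arrays. Named were the 20 highest and 15 lowest genes, up to 10 per direction counted in both pairs, and list members, with values for those counted and for at most 6 others per list; genes outside this rule are named as such or serve as examples chosen after their values were seen. The comparison and the 29 gene lists were chosen with earlier results of these data known. Alternatives were 3 scalings, 2 probe set rules, filters, folds, motifs and window.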

Additional observations from a re-analysis of the deposited data

Results flagged for a closer look

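In 5 genes the difference between N154S and hSTING was 2-fold or more in opposite directions without and with dsDNA, each from 1 array a side, and the difference between the pairs was not tested. Cxcl9, a CXCR3 ligand gene, was 2.17 higher in N154S control cells and -1.27 after dsDNA, where hSTING stood at 9.72 and N154S at 8.45. The DNA-binding family member Ifi205 gave 1.32 and -1.03, with 11.97 in hSTING and 10.94 in N154S after dsDNA. Sp110, a nuclear body gene, was 2.46-fold higher in control cells and gave -1.04 after dsDNA, and its other probe sets gave 0.84 and -0.29 in control cells. Gm4841, a gene in the Iigp1 run, gave 1.79 and -1.41. Snora44, a small nucleolar RNA gene, gave 1.43 and -1.64, opposite in control cells to the Snord genes.

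Outside the named genes, 26 of 1814 probe sets with several symbols (1.43%) were 2-fold or more higher in N154S control cells, with a highest difference of 3.92, and 5 were lower. Of 16010 probe sets not listed in the annotation, 98 were higher (0.612%) and 159 lower (0.993%). They carry no gene name here.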

How the results depend on the processing

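No paired analysis was possible because there is 1 array per construct and treatment. None of the 46 genes followed turned its direction, and the other genes named in the text were not followed. List medians near 0 changed sign: class II genes had -0.06, the interferon genes went from -0.10 to 0.01 over bright members, the T or NK markers from -0.11 to 0.01 as a mean and the NRF2 genes from 0.02 to -0.08 as a mean, and those of sex-linked and epithelial markers, both 0.01, went to -0.01 with centred arrays. Under the alternatives, 233 values of counts, list medians and motif shares were set against the main values. The limits were 1.5 times for a count and 0.250 for a median. For a motif share the limit was the binomial confidence interval of the main share. Within these limits 214 values stayed, and 19 did not. At 1.5-fold 415 genes were higher and 314 lower, and at 3-fold 43 and 4. With protein-coding genes only, 107 were higher and 32 lower. For the dsDNA pair 334 were higher and 499 lower at 1.5-fold, 62 were higher with no filter on signal, and 22 higher and 28 lower genes were shared with the control pair at 1.5-fold there. Medians over bright members were 1.51 for GTPases, 0.37 for class II genes and -0.81 for the listed histone genes. Means were 0.74 for chemokines, -0.74 for small structural RNAs, 0.27 for sex-linked markers and -0.25 for skeletal muscle markers. The ISRE core followed by C was in 14.5% of higher genes with a window and in 0.901% of all genes with one. The core with 3 bases between its parts was in 9.64% of higher genes and 3.03% of all. The fold counts differ because the threshold does, and the cause of the other shifts was not tested. Of 230 values of the 46 genes followed, H2-Q5 (1.71) and H2-Q4 (1.46) moved, both with the mean over probe sets. Across scalings and probe set rules, 110 to 118 genes were higher and 45 to 54 lower. Signals below the array median carry no usable difference, and 1 array a side gives no error.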

Other observations

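Some higher genes encode secreted factors, and the 4 given here were picked after their values were seen, so nothing is said of such genes as a group. Penk, which encodes the opioid precursor proenkephalin, stood at 8.50 with the vector, 8.66 with hSTING, 10.41 with N154S and 11.03 with R284S in control cells. Vegfc, a lymphatic growth factor gene, stood at 6.65, 6.74, 8.02 and 8.48, and Adm, which encodes the vasodilator adrenomedullin, at 8.13, 8.29, 9.51 and 9.21. Sema3c, a guidance factor gene, stood at 6.06, 6.50, 7.83 and 7.84. In these 4 genes the vector and hSTING signals were close and both mutant lines lay above them. After dsDNA, Penk stood at 10.59 with hSTING and 10.76 with N154S, and Sema3c at 7.01 and 7.97.

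Apod, which encodes the lipid carrier apolipoprotein D, stood at 4.62 with the vector, 7.44 with hSTING, 8.97 with N154S and 3.87 with R284S in control cells. The R284S line was the lowest of the 4 for this gene, also chosen after its values were seen.

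Uty, a Y-linked gene, stood at 4.86, 4.05, 5.26 and 5.03 in control cells and was counted as higher in N154S, while the other 3 sex-linked genes measured differed by -0.17 to 0.02.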
